A study of Mus musculus with 12 samples.

Results

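The 50 genes described here act in the G2 phase and in mitosis, and they were measured in a mouse B cell lymphoma line treated with an inhibitor of KAT6A and KAT6B, a pair of histone acetyltransferases. They were taken from the count table by gene symbol, through its Entrez gene identifiers. No measured value served as a criterion, but the symbols were chosen with earlier results of these data known. All 50 were present among the 26305 identifiers of the table and all 50 passed the filter on low counts, which left 11997 genes. EMRK1184luc is 1 lymphoma line from a female Eµ-Myc mouse, in which a transgene places Myc under the immunoglobulin heavy chain enhancer, and it carries a lentiviral luciferase construct. All 4 groups are this same line. The 2 treated groups received 5 µM WM-1119 for 3 or 6 days and the 2 control groups received the vehicle DMSO for the same times, with 3 biological replicates in each group. The sources used here do not say whether the replicates were separate cultures, and the p-values rest on the spread between them as prepared.

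Genes of this group are transcribed late in the cell cycle. In resting cells and in G1 the DREAM complex, built on the MuvB core with the pocket protein p130 or p107 and E2F4 or E2F5, holds many of them down through a promoter element called the cell cycle genes homology region (CHR). In S and G2 the same core exchanges partners for B-Myb (Mybl2) and then recruits Foxm1, and the genes are switched on. Their products drive entry into mitosis, build the spindle, attach chromosomes to it and cut the dividing cell apart, and their summed messenger RNA is often read as a measure of proliferation.

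The libraries held 14736267 to 41749357 counts. The WM-1119 libraries of 6 days were the shallowest at 14736267 to 17563985 counts, and the DMSO libraries of 6 days held 22831687 to 41749357. The lowest count of any of the 50 genes in any library was 156, for Pttg1. B cell markers were high in every library (Cd79a at 609.99 to 702 CPM), except Ms4a1, which was at 0 in 11 of 12. CPM are counts scaled to a common library total after correction with TMM factors. T cell and neutrophil markers summed to at most 0.12 CPM. Of the macrophage markers Marco, C1qa and C1qb were at 0 in all 12 libraries and Adgre1 in 10, while Mrc1 stood at 54.2 to 63.6 CPM with DMSO and 27.8 to 35.3 CPM with WM-1119 and Csf1r at 0.57 to 1.16 and 3.62 to 4.97 CPM. The macrophage list of 7 genes summed to 58.1 to 68.1 and 59.8 to 64.6 CPM with DMSO and to 36.9 to 38.4 and 35.7 to 42.5 CPM with WM-1119, at 3 and 6 days. Mrc1 was lower (log2 fold changes -1.02 and -0.88) and Csf1r higher (2.14 and 2.25) with WM-1119 at 3 and 6 days, and their part in the results on the 50 genes was not tested. The fibroblast gene Col1a1 stood at 6.10, 2.08 and 0.49 CPM with DMSO and 6.83, 12.9 and 0.41 CPM with WM-1119 at 6 days, at 1.88 CPM in WM-1119 replicate 2 of 3 days and at 0.31 to 0.98 CPM in the others. The fibroblast list as a whole summed to 17.6 to 20.9 CPM (DMSO) and 11.5 to 14.8 CPM (WM-1119) at 3 days, and to 17.96 to 32.4 CPM and 11.4 to 49.0 CPM at 6 days. Most of the sum at 3 days was Fbn1, at 15.4 to 18.0 CPM with DMSO and 9.92 to 10.1 CPM with WM-1119. Fbn1 was lower with WM-1119 (log2 fold changes -0.75 and -0.49 at 3 and 6 days). The other tested genes of the list had estimates above 0, from 0.45 to 1.73 and from 0.96 to 1.54, and were not called. Because of the spread of Col1a1, the results were also computed without the 5 libraries over 1 CPM of Col1a1. In whole-culture RNA, fewer cells in G2 and mitosis and less RNA per such cell cannot be told apart.

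All 50 genes were well expressed. Per length, as RPKM averaged over the 12 libraries, they ran from 6.49 (Pttg1) to 230.7 (Ube2c) with a median of 47.4. The median of all tested genes was 12.9 RPKM, and 49 of the 50 lay above it. Ube2c, the E2 enzyme of the anaphase-promoting complex, was followed by Top2a (219.8 RPKM), the topoisomerase that untangles sister chromatids, and by Cenpa (166 RPKM), the centromeric histone. At the low end, after Pttg1, came Ska1 at 15.3 and Cenpf at 15.6 RPKM. Replicates lay close together, with a median coefficient of variation within groups of 3.41% and a highest of 13.5%.

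Promoter sequences from RefSeq (build GRCm38.p6, the sequence of mm10) were matched for 40 of the 50 genes, as windows of 300 bases from 250 before to 50 after the start site. The start site is the one given with each sequence, and for some genes it lies inside the annotated gene span. The CHR letters TTTGAA, on either strand, lay within 50 bases of the start site in 25 of 40 (62.5%), against 3.8% of the 9235 tested genes with a promoter in the same table. The CCAAT box, to which the factor NF-Y binds, was searched as CCAAT on both strands and lay anywhere in the window in 30 of 40 (75%), against 43.9%. At least 2 of them lay in 20 of 40 (50%), against 17.7%. CHR near the start together with a CCAAT box occurred in 22 of 40 (55%), against 2.21%. An E2F site, searched as TTTCCCGC, TTTCGCGC, TTTGCCGC or TTTGGCGC on both strands, was present in 1 of 40 (2.5%), in Cdk1, against 4.92%. None of the searched strings contains another. Only these exact strings were searched, so a promoter without a match can still hold another form of a site. These matches describe letters in the window and are not measured binding sites.

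**Figure D1:**
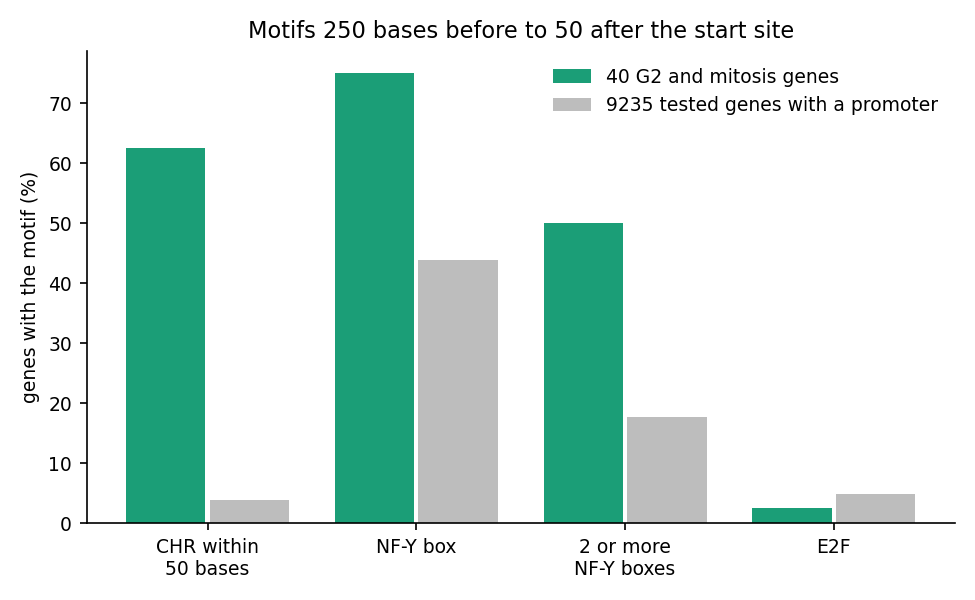
Share of promoters (%) with each motif among the 40 matched G2 and mitosis genes (green) and among the 9235 tested genes with a promoter (grey); the NF-Y box is the CCAAT box. The widest gap is for the CHR within 50 bases of the start site, at 62.5% against 3.8%.

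The windows below belong to the 5 genes that changed at both times, 3 lower and 2 higher with WM-1119, and are shown so that their promoters can be compared. Capitals mark CHR letters (TTTGAA or TTCAAA) and CCAAT boxes (CCAAT or ATTGG), 5′ to 3′ along the gene's strand. They are Cdc25b (chr2:131186698-131186997, plus strand), Anln (chr9:22389157-22389456, minus strand), Cenpa (chr5:30666636-30666935, plus strand), Kif23 (chr9:61946750-61947049, minus strand) and Mybl2 (chr2:163054385-163054684, plus strand).
Cdc25b: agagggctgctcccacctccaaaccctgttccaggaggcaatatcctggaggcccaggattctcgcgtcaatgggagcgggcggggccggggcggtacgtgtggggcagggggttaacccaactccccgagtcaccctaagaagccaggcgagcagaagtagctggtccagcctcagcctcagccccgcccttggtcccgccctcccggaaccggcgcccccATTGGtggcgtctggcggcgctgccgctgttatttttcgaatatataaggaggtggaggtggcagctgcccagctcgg
Anln: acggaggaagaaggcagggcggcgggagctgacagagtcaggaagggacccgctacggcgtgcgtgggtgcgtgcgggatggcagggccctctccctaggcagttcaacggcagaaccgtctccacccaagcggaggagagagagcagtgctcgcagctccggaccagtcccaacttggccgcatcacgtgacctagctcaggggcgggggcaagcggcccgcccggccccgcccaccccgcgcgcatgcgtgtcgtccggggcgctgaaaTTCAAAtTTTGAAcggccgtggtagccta
Cenpa: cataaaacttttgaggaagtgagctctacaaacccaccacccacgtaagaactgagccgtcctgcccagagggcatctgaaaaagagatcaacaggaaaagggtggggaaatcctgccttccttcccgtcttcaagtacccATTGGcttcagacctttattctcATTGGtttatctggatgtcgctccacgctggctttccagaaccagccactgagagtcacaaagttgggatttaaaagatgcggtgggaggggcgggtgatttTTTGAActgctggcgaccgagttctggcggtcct
Kif23: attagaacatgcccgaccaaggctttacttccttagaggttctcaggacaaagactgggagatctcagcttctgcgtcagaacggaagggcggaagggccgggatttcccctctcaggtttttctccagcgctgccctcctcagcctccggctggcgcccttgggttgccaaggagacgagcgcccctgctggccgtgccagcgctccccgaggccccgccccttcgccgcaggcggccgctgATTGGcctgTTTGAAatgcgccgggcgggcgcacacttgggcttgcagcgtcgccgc
Mybl2: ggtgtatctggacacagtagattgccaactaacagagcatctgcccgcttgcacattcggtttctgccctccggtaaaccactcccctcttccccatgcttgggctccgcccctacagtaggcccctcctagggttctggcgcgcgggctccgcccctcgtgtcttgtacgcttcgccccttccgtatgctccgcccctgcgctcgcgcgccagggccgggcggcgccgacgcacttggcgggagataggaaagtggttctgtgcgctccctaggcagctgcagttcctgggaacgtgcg
Kif23 has a CHR 3 bases after the start site with a CCAAT box 7 bases before it, and Cenpa a CHR 17 bases after the start with CCAAT boxes 109 and 86 bases before. Anln has CHR letters 22 and 29 bases after the start, on opposite strands, and no CCAAT box. Cdc25b has 1 CCAAT box, 28 bases before the start, and no TTTGAA on either strand. Mybl2 has none of the searched letters in its window. In the windows searched, the genes that fell and those that rose at both times each include promoters with and without the letters TTTGAA. The windows of Cdc25b and Mybl2 lie inside the annotated gene spans. They begin at 131186698 against a gene start of 131186436 and at 163054385 against 163054327. Sequence near another start site of these genes was not searched. For the CHR only TTTGAA, on either strand, was searched, and variants of it were not. For E2F only the exact strings given above were searched, so other forms of that site, in Mybl2 or elsewhere, were not counted.

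After 3 days 12 of the 50 G2 and mitosis genes fell with WM-1119 and 2 rose (28% called, against a background of 24.4% of all tested genes). The falls made up 24% of the group, against 12.6% of all tested genes that fell, and the rises 4%, against 11.8%. Estimates lay below 0 for 38 of 50, and the median log2 fold change was -0.07, against 0.0016 over all genes. The changes were small. The strongest fall was 1.23-fold (Pttg1), and the median size of a change, 0.08 on the log2 scale, was below that of all genes, 0.13. Since 49 of the 50 lay above the median level of all tested genes, these sizes do not compare genes of equal level. All 3 treated libraries lay below all 3 controls for 17 genes (background 20.4%) and above them for 3 (background 19.5%). The count of 14 was 8 with upper-quartile scaling and with DESeq2 (6 lower and 2 higher in each) and 9 without the 5 libraries over 1 CPM of Col1a1. It was 9, 8, 9 and 5 without DMSO replicate 1, DMSO replicate 2, WM-1119 replicate 2 and WM-1119 replicate 3 of 3 days. The 5 genes left in the last case were Cdc25b, Anln, Cenpa, Kif23 and Mybl2. The shares of all genes called in these alternative fits are not given here. Whether the falls still exceeded the background in them is therefore not shown.

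**Figure D2:**
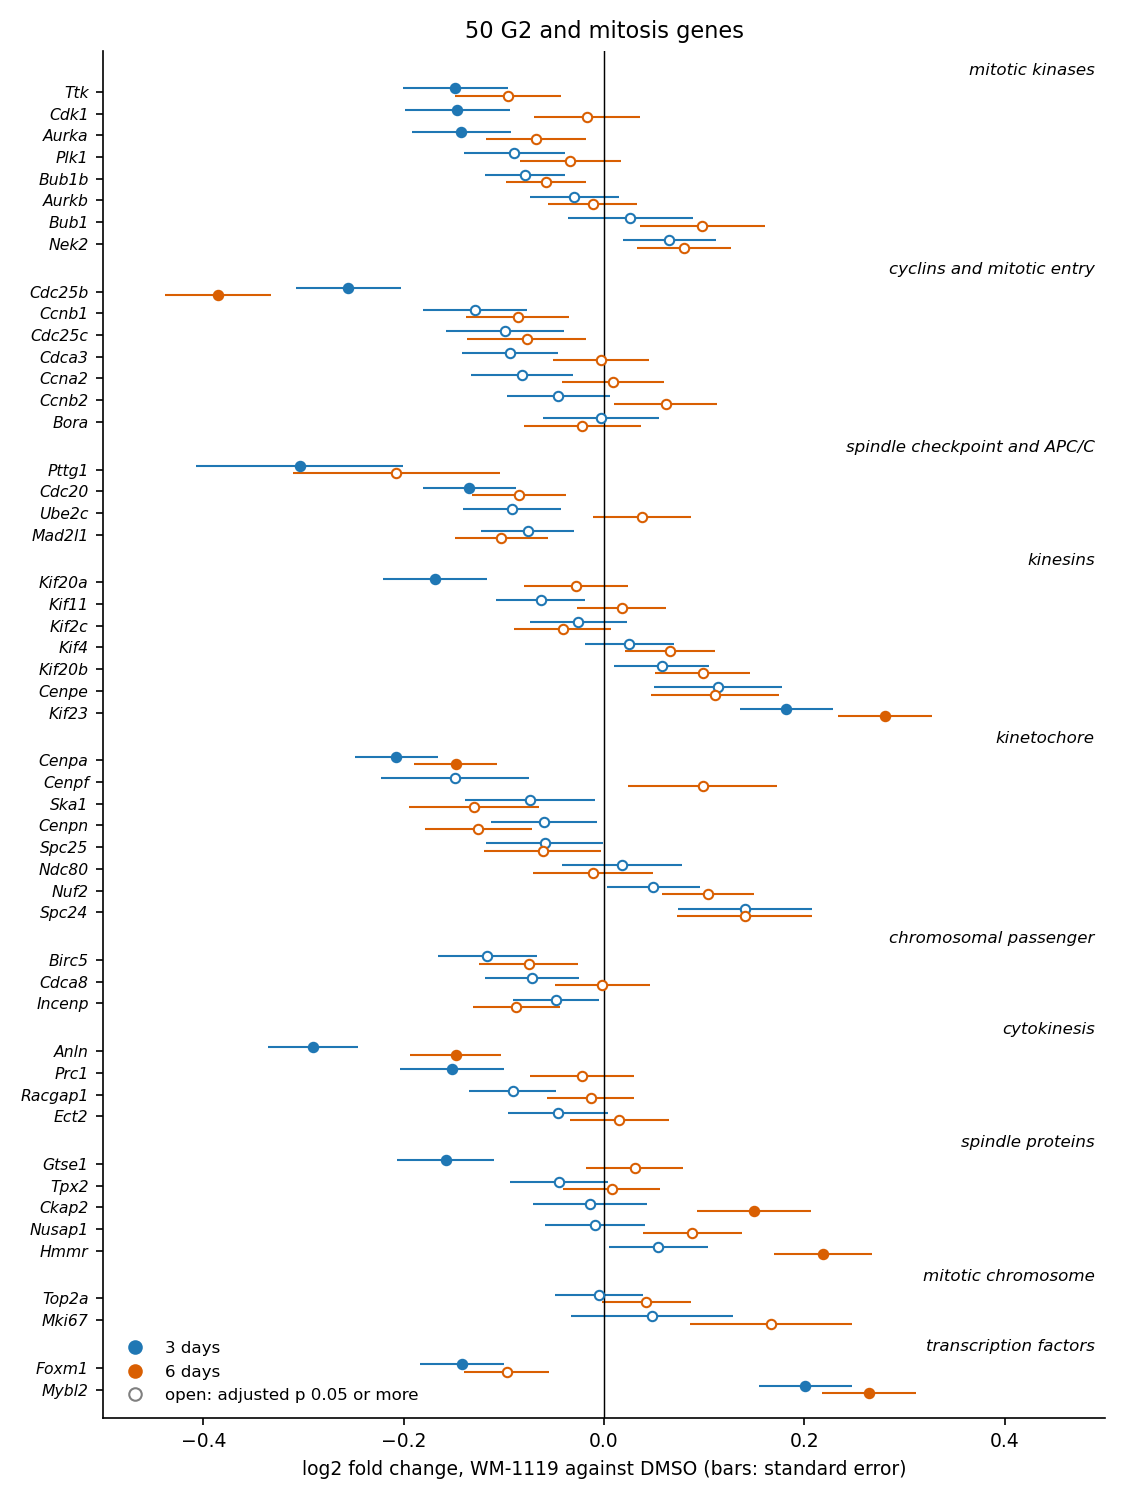
Log2 fold change of WM-1119 against DMSO for each of the 50 genes at 3 days (blue) and 6 days (orange), by role; bars are standard errors and filled points have an adjusted p below 0.05. All estimates lie between -0.39 and 0.28, and 38 of the 50 blue points lie left of 0.

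After 6 days 3 of the 50 genes fell with WM-1119 and 4 rose (14% called, background 30.8%; fallen 6%, background 15.1%; risen 8%, background 15.7%). The median log2 fold change was -0.01 and 28 of 50 estimates lay below 0. No overlap between treated and control libraries was seen for 9 genes that lay lower (background 19.9%) and 6 that lay higher (background 21.4%). Same-numbered replicates of 6 days deviated together, and a fit of those libraries with a replicate block called 12 genes, 8 higher and 4 lower (24% of 50, against 37.1% of all genes tested in that fit). Those were the same 7 with Bub1 (0.10), Cenpe (0.11), Spc24 (0.14), Mki67 (0.17) and Foxm1 (-0.10) added. Without the 5 libraries over 1 CPM of Col1a1, which leaves 1 library in each group of 6 days, 2 genes were called, Cdc25b and Kif23; there the lone libraries are assumed to vary like the other groups.

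**Figure D3:**
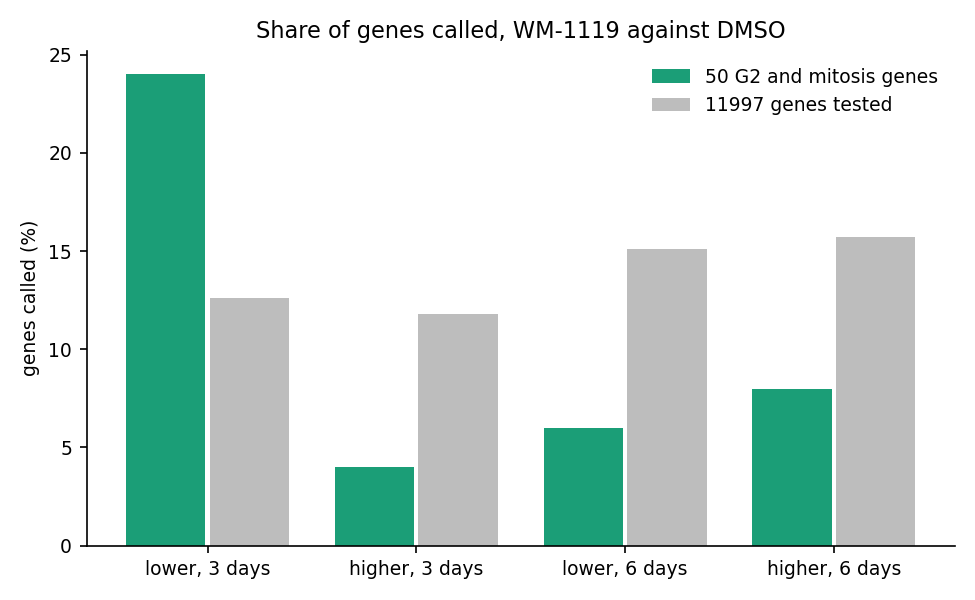
Share of genes (%) with an adjusted p below 0.05 in each direction and at each time, for the 50 G2 and mitosis genes (green) and for all 11997 genes tested (grey). The green bar exceeds the grey one among the falls of 3 days, at 24% against 12.6%, and is lower than it in the other 3 pairs.

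Of the 50 genes 5 were called at both times, 16 at either time and 34 at neither, and no gene was called in opposite directions. With the replicate block at 6 days, 6 were called at both times, Foxm1 being the one added, 20 at either and 30 at neither. The shares of all tested genes called at both, at either or at neither time are not given here. Whether these counts differ from the background is therefore not shown. The difference between the effects at 6 and at 3 days, tested directly, was called for 0 of 50 genes with edgeR (background 0.725%), and 4 had an unadjusted p below 0.05: Gtse1, Hmmr, Cenpf and Anln. That is 8%, near the 8.22% of all tested genes with such a p. DESeq2 and limma voom also called 0. Estimates of this difference lay above 0 for 39 of 50. Averaged over both times, 12 genes fell (background 21.4%) and 4 rose (background 20.6%), together 32% (background 42.0%), and 7 fell and 2 rose without the 5 libraries over 1 CPM of Col1a1.

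For the genes that were not called, the interval of each gene gives a range for its change. The intervals were computed gene by gene, are not adjusted for the number of genes, and rest on the replicates as prepared. They therefore do not bound all the changes together. At 3 days the 95% confidence intervals of all 36 lay within a 1.25-fold change in either direction, the farthest bound being that of Cenpf at 1.24-fold. At 6 days those of 41 of 43 did, the exceptions being Pttg1 (1.34-fold) and Mki67, and all 43 lay within 1.5-fold.

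Few of the genes differed between the times within a treatment. With DMSO, 1 of 50 differed between 6 and 3 days (background 0.809%, and 0.450% for genes that fell). This was Kif23, lower at 6 days by a log2 fold change of -0.23 (adjusted p = 0.0154), and 44 of 50 estimates lay below 0. With WM-1119, 1 of 50 differed (background 5.62%, and 3.29% for genes that fell), Cdc25b, at -0.22 (adjusted p = 0.0151), and 23 of 50 estimates lay below 0. These comparisons use the same libraries as the treatment comparisons and are not independent of them.

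Seen library by library, the mean of the 50 genes, as log2 CPM centred on each gene's mean over 12 libraries, was 0.06, 0.06 and 0.02 with DMSO and -0.02, 0.01 and -0.03 with WM-1119 at 3 days. At 6 days it was -0.04, -0.03 and 0.02 with DMSO and -0.03, -0.01 and -0.01 with WM-1119. The groups of 3 days did not overlap and those of 6 days did. The first principal component of the centred values held 43.3% of their variance and placed the 6 DMSO libraries at 0.14 to 0.41 and the 6 WM-1119 libraries at -0.45 to -0.18. Its largest loadings were those of Cdc25b (0.44), Pttg1 (0.33) and Anln (0.27) on one side and of Mybl2 (-0.27) and Kif23 (-0.24) on the other. The second component held 17.9% of the variance and set WM-1119 replicate 2 of 3 days (-0.50) farthest from DMSO replicate 1 of 6 days (0.48). Across the 1225 pairs of genes the median Pearson correlation over the 12 libraries was 0.23, and 0.17 after removing group means; the pairs share libraries and depth.

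**Figure D4:**
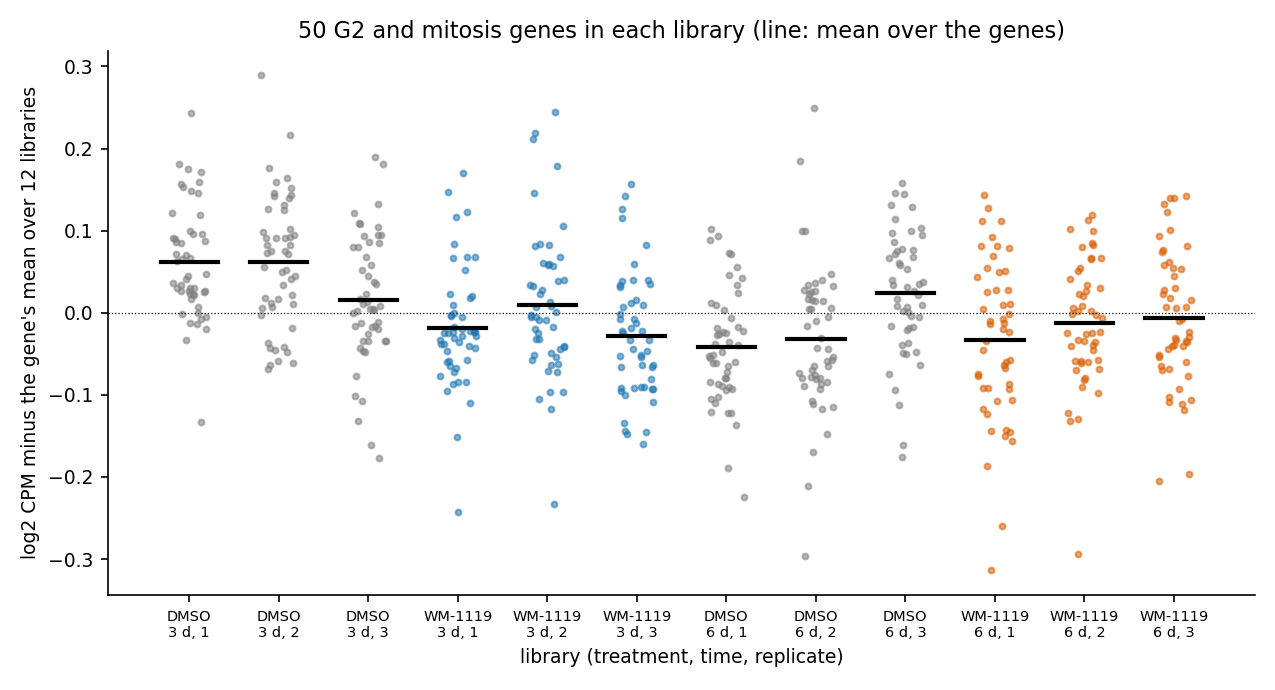
Log2 CPM minus the gene's mean over 12 libraries for each of the 50 genes (points) in each library, with the mean over the genes (black line). The means lie between -0.04 and 0.06, and only in the 3-day libraries are all 3 DMSO means above all 3 WM-1119 means.

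Entry into mitosis is driven by cyclin B with the kinase Cdk1, which the Cdc25 phosphatases activate. Of the 7 genes for cyclins and mitotic entry, Cdc25b alone was called, lower at both times. Cdc25b (chr2:131186436-131198511), whose product starts the activation of Cdk1 at the centrosome, stood at 193, 199 and 172 CPM with DMSO and 160.1, 158 and 154 CPM with WM-1119 at 3 days, and 171, 185 and 173 against 131, 133 and 141 CPM at 6 days. Every treated library lay below every control library at both times, and the lowest values were those of WM-1119 at 6 days. The fall was 1.19-fold at 3 days (log2 fold change -0.26 ± 0.05 SE, adjusted p = 0.000909) and 1.31-fold at 6 days (-0.39 ± 0.05, adjusted p = 6.6e-06), the largest change of the 50 genes at 6 days. Ccnb1, cyclin B1, stood at 132, 123 and 131 CPM with DMSO and 119.7, 119 and 114 CPM with WM-1119 at 3 days, and 129, 116 and 127 against 122, 111 and 117 CPM at 6 days. Its treated libraries lay below the controls at 3 days and overlapped them at 6 days, and it was not called at either time (-0.13 ± 0.05, adjusted p = 0.0745, and -0.09 ± 0.05, adjusted p = 0.222). At 3 days Ccnb1 was called under 3 of 22 alternatives, among them the edgeR fit with a replicate block over all libraries (adjusted p = 0.0411). The other 5, Ccna2, Ccnb2, Cdc25c, Bora and Cdca3, had estimates from -0.10 to 0.06 and none was called. Ccnb1 and Ccnb2 have annotated pseudogenes, and the sources used here do not say how reads that map to several places were counted.

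Among the 8 mitotic kinases 3 fell at 3 days and none was called at 6 days. Cdk1, the kinase whose activity defines mitosis, stood at 253, 252 and 243 CPM with DMSO and 233, 221 and 222 CPM with WM-1119 at 3 days, and 220.1, 239 and 254 against 222, 249.9 and 233 CPM at 6 days. Its groups were separate at 3 days and overlapped at 6 days (-0.15 ± 0.05, adjusted p = 0.0468, and -0.02 ± 0.05, adjusted p = 0.841). Aurka, the Aurora kinase of the spindle poles, stood at 113, 117 and 115 CPM with DMSO and 103, 103 and 107 CPM with WM-1119 at 3 days, and 103, 107 and 115 against 99.2, 108 and 102 CPM at 6 days. Its fall at 3 days was 1.10-fold (-0.14 ± 0.05, adjusted p = 0.0397), and at 6 days the libraries overlapped (-0.07 ± 0.05, adjusted p = 0.326).

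Ttk, the kinase Mps1 that starts the spindle checkpoint at unattached kinetochores, stood at 80.8, 79.2 and 72.0 CPM with DMSO and 68.8, 69.3 and 71.4 CPM with WM-1119 at 3 days, and 70.6, 71.9 and 74.8 against 66.5, 68.4 and 68.4 CPM at 6 days. All treated libraries lay below the controls at both times, and only the difference of 3 days was called (-0.15 ± 0.05, adjusted p = 0.042, and -0.10 ± 0.05, adjusted p = 0.18). Plk1, the Polo-like kinase of mitotic entry and spindle assembly, stood at 165, 171 and 163 CPM with DMSO and 148, 162 and 159 CPM with WM-1119 at 3 days, and 143, 156 and 156 against 140.3, 153 and 151 CPM at 6 days. It lay lower in all treated libraries of 3 days but was not called at either time (-0.09 ± 0.05, adjusted p = 0.215, and -0.03 ± 0.05, adjusted p = 0.66). Aurkb, the kinase of the chromosomal passenger complex, stood at 208, 217 and 205 CPM with DMSO and 207, 205 and 205 CPM with WM-1119 at 3 days, and 191, 207 and 205 against 195, 198 and 205 CPM at 6 days. Its libraries overlapped at both times (-0.03 ± 0.04 and -0.01 ± 0.04). Bub1, Bub1b and Nek2 had estimates from -0.08 to 0.10. The calls of Cdk1, Aurka and Ttk at 3 days were lost under 10, 11 and 14 of 22 alternatives, among them DESeq2 and upper-quartile scaling.

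Of the 4 genes of the spindle checkpoint and the anaphase-promoting complex, 2 fell at 3 days and none was called at 6 days. Cdc20, the activator through which the complex targets securin and cyclin B, stood at 262, 279 and 263 CPM with DMSO and 244, 246 and 243 CPM with WM-1119 at 3 days, and 231, 252 and 253 against 222, 231 and 242 CPM at 6 days. The groups were separate at 3 days (-0.13 ± 0.05, adjusted p = 0.0396) and overlapped at 6 days (-0.09 ± 0.05, adjusted p = 0.182). Pttg1 is securin, the inhibitor of separase that is destroyed at anaphase. It had the lowest level of the 50 genes, 12.7, 13.0 and 11.2 CPM with DMSO and 10.49, 9.53 and 10.1 CPM with WM-1119 at 3 days, and 12.03, 13.3 and 11.2 against 9.34, 10.7 and 11.6 CPM at 6 days. Its treated libraries lay lower at 3 days by 1.23-fold (-0.30 ± 0.10, adjusted p = 0.0354), the largest estimate of that time and the one with the largest error, and overlapped the controls at 6 days (-0.21 ± 0.10, adjusted p = 0.139). The call of Pttg1 was lost under DESeq2 and without the libraries over 1 CPM of Col1a1, and that of Cdc20 likewise. Mad2l1, which holds Cdc20 inactive, and Ube2c had estimates from -0.10 to 0.04 and were not called.

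The 7 kinesins, motors that move or sort microtubules, went in different directions. Kif23 (chr9:61917277-61946810) encodes the motor subunit of centralspindlin, which organises the midzone for cytokinesis. It stood at 147, 138 and 148 CPM with DMSO and 162, 168 and 161 CPM with WM-1119 at 3 days, and 123, 117 and 128 against 149, 144 and 154 CPM at 6 days. Every treated library lay above every control library at both times, and both 6-day groups lay below the matching 3-day group. The rise was 1.13-fold at 3 days (0.18 ± 0.05, adjusted p = 0.00577) and 1.21-fold at 6 days (0.28 ± 0.05, adjusted p = 7.34e-05). Kif20a, a midzone kinesin needed for cytokinesis, stood at 263, 254 and 248 CPM with DMSO and 229, 235 and 217 CPM with WM-1119 at 3 days, and 228, 227 and 260.2 against 228, 241 and 232 CPM at 6 days. It fell at 3 days (-0.17 ± 0.05, adjusted p = 0.0203), and its groups overlapped at 6 days (-0.03 ± 0.05, adjusted p = 0.727). The remaining kinesins, Kif11, Kif20b, Kif2c, Kif4 and Cenpe, had estimates from -0.06 to 0.11 and were not called at either time. Kif4 has an annotated pseudogene, with the same limit as for the cyclins.

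**Figure D5:**
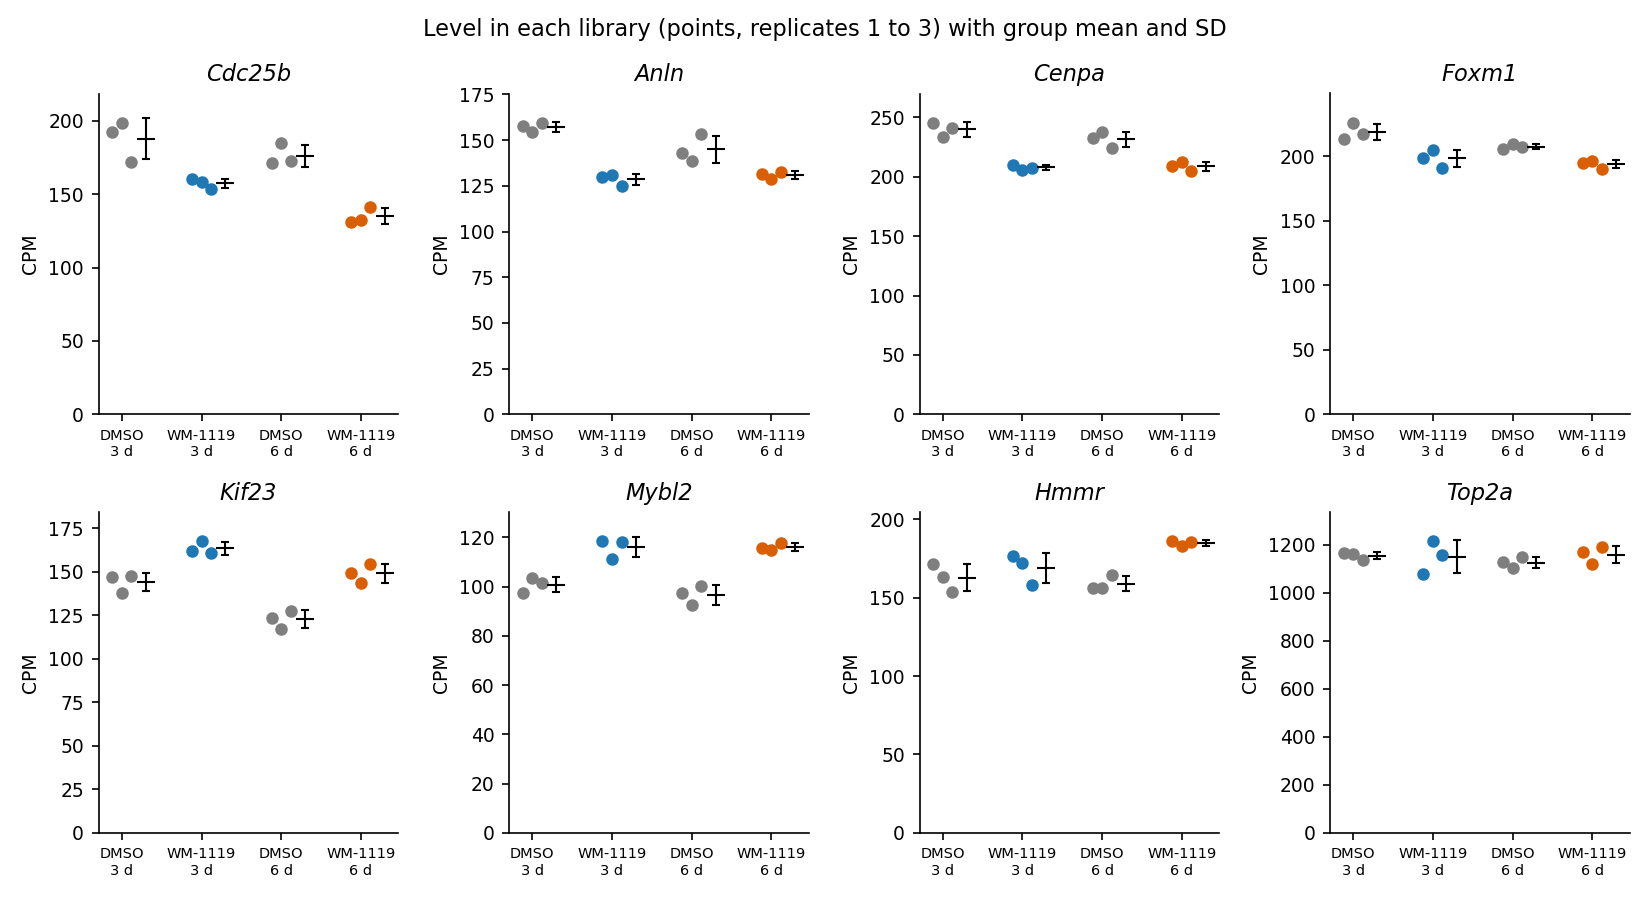
CPM of 8 of the genes in each library (points, replicates 1 to 3 from left to right) with group means and SD (black, n = 3), on axes that start at 0. Cdc25b, Anln and Cenpa lie lower and Kif23 and Mybl2 higher in all WM-1119 libraries than in the DMSO libraries of the same time, and the groups of Top2a overlap.

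Of the 8 kinetochore genes Cenpa fell at both times and no other was called. Cenpa (chr5:30666877-30674837), the histone H3 variant that marks the centromere, stood at 246, 233 and 241 CPM with DMSO and 210.1, 206 and 208 CPM with WM-1119 at 3 days, and 233, 237 and 224 against 209, 213 and 205 CPM at 6 days. Its treated libraries lay below the controls at both times, by 1.15-fold at 3 days (-0.21 ± 0.04, adjusted p = 0.000694) and 1.11-fold at 6 days (-0.15 ± 0.04, adjusted p = 0.00887). The Ndc80 complex binds microtubules. At 3 days the log2 fold changes of its subunits were 0.02 (Ndc80), 0.05 (Nuf2), 0.14 (Spc24) and -0.06 (Spc25), none of them called. At 6 days Nuf2 held 139 CPM in each treated library against 124, 129 and 136 CPM in the controls, which is separate but not called (0.10 ± 0.05, adjusted p = 0.0937). Cenpn, which reads the Cenpa nucleosome, lay at 45.3, 48.1 and 46.1 CPM against 50.5, 50.6 and 51.2 CPM at 6 days, also separate and not called (-0.13 ± 0.05, adjusted p = 0.0794). Cenpf, a large kinetochore protein of G2, had the widest interval of these genes at 3 days, its WM-1119 libraries holding 146, 192 and 167 CPM. Without the libraries over 1 CPM of Col1a1, which removes the one at 192 CPM, Cenpf was called at -0.25. The 3 genes of the chromosomal passenger complex, Birc5 (survivin), Incenp and Cdca8 (borealin), had estimates from -0.12 to -0.00 and were not called.

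Of the 4 cytokinesis genes 2 fell at 3 days and 1 of them, Anln, also at 6 days. Anln (chr9:22331214-22389211) encodes anillin, the scaffold that ties actin, myosin and septins together in the contractile ring. It stood at 158, 154 and 159.6 CPM with DMSO and 129.6, 131 and 125 CPM with WM-1119 at 3 days, and 143, 138 and 153 against 131, 129 and 133 CPM at 6 days. Treated and control libraries were separate at both times. The fall was 1.22-fold at 3 days (-0.29 ± 0.05, adjusted p = 4.72e-05), the smallest adjusted p of the 50 genes at that time, and 1.11-fold at 6 days (-0.15 ± 0.05, adjusted p = 0.0158). Prc1, which bundles the microtubules of the midzone, stood at 138, 142 and 153 CPM with DMSO and 129.8, 131 and 129 CPM with WM-1119 at 3 days, and 129.6, 128 and 146 against 131, 135 and 132 CPM at 6 days. It fell at 3 days (-0.15 ± 0.05, adjusted p = 0.0374), and its groups overlapped at 6 days (-0.02 ± 0.05, adjusted p = 0.788). The call of Prc1 was lost under 8 of 22 alternatives, among them DESeq2 and upper-quartile scaling. Racgap1, the partner of Kif23 in centralspindlin, and Ect2, the exchange factor it recruits, were not called. Racgap1 had log2 fold changes of -0.09 and -0.01 where Kif23 had 0.18 and 0.28.

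The 5 spindle proteins were the only role with all estimates above 0 at 6 days apart from the pair of mitotic chromosome genes. Hmmr, a microtubule-associated protein of the spindle poles, stood at 171, 163 and 154 CPM with DMSO and 177, 172 and 158 CPM with WM-1119 at 3 days, and 156, 156 and 164 against 186, 183 and 186 CPM at 6 days. The groups overlapped at 3 days (0.05 ± 0.05, adjusted p = 0.466) and were separate at 6 days, where the rise was 1.16-fold (0.22 ± 0.05, adjusted p = 0.00161). Ckap2, a spindle-associated protein, stood at 77.3, 74.3 and 80.2 CPM with DMSO and 75.6, 77.2 and 76.5 CPM with WM-1119 at 3 days, and 73.5, 69.1 and 81.4 against 80.5, 82.4 and 85.8 CPM at 6 days. At 6 days it rose (0.15 ± 0.06, adjusted p = 0.0493), although WM-1119 replicate 1 lay below DMSO replicate 3, and at 3 days it was not called (-0.01 ± 0.06). Its call was lost under 14 of 23 alternatives, among them DESeq2, no filter and the groups fitted alone. Gtse1, a microtubule-binding protein of G2 and mitosis, stood at 135, 152 and 149 CPM with DMSO and 130.0, 133 and 128 CPM with WM-1119 at 3 days, and 129.5, 137 and 134 against 137, 139 and 132 CPM at 6 days. It fell at 3 days (-0.16 ± 0.05, adjusted p = 0.0197) and its groups overlapped at 6 days (0.03 ± 0.05, adjusted p = 0.674). Tpx2 and Nusap1 were not called at either time.

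The proliferation markers on mitotic chromosomes were the most abundant transcripts of the 50 in CPM. Top2a stood at 1164, 1161 and 1136 CPM with DMSO and 1079.5, 1214 and 1155 CPM with WM-1119 at 3 days, and 1126, 1101 and 1148 against 1168, 1119 and 1189 CPM at 6 days. The groups overlapped at both times (-0.00 ± 0.04 and 0.04 ± 0.04, adjusted p = 0.956 and 0.505). Mki67, the antigen Ki-67 that coats mitotic chromosomes, stood at 1107, 1128 and 1086 CPM with DMSO and 991, 1275 and 1166 CPM with WM-1119 at 3 days, and 966, 1045 and 1054 against 1190.0, 1042 and 1207 CPM at 6 days. Its WM-1119 libraries of 3 days were the most spread, with replicate 1 lowest and replicate 2 highest of the 6 libraries of that time. Mki67 was not called at 3 days (0.05 ± 0.08, adjusted p = 0.723) or at 6 days (0.17 ± 0.08, adjusted p = 0.144); with the replicate block within the libraries of 6 days its adjusted p was 0.0348.

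The pair of transcription factors that switch these genes on went opposite ways at 3 days. Foxm1, the forkhead factor of G2, stood at 213, 226 and 217 CPM with DMSO and 199, 204 and 191 CPM with WM-1119 at 3 days, and 205, 209 and 207 against 195, 196 and 190.2 CPM at 6 days. All treated libraries lay below the controls at both times. The fall was called at 3 days (-0.14 ± 0.04, adjusted p = 0.0168) and not at 6 days (-0.10 ± 0.04, adjusted p = 0.0879), where the replicate block gave an adjusted p of 0.0485. Mybl2 (chr2:163054327-163084688) encodes B-Myb. It stood at 97.5, 103 and 101 CPM with DMSO and 118, 111 and 118 CPM with WM-1119 at 3 days, and 97.2, 92.3 and 100.2 against 116, 115 and 118 CPM at 6 days. Every treated library lay above every control, with rises of 1.15-fold at 3 days (0.20 ± 0.05, adjusted p = 0.00276) and 1.20-fold at 6 days (0.26 ± 0.05, adjusted p = 0.000145).

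Genes with and without the CHR letters TTTGAA near the start were also counted apart. Of the 25 genes with these letters, 7 fell and 1 rose at 3 days (median -0.08), and 2 fell and 2 rose at 6 days (median -0.01). Over all tested genes 12.6% fell and 11.8% rose at 3 days, and 15.1% fell and 15.7% rose at 6 days. Of the 15 with a promoter but no such letters there, 3 fell and 1 rose at 3 days (median -0.01), and 1 fell and 2 rose at 6 days (median 0.08). Among the 15, the windows of Cdc25b, Mybl2, Pttg1 and Kif2c lie inside the annotated gene span, so letters near another start site would be missed. The same holds for Cdca3 and Ect2 among the 25. The difference between these sets was not tested.

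Other genes of the pathway, counted from wider lists, changed in both directions as well. Among 97 further mitotic genes, 6 fell and 9 rose at 3 days (15.5% called, background 24.4%) and 9 fell and 14 rose at 6 days (23.7%, background 30.8%). The smallest p-values were those of Iqgap3 (0.44 and 0.46 at 3 and 6 days), a scaffold protein of proliferating cells, the condensin subunit Ncapd3 (0.25 and 0.28), Psrc1 (0.27 and 0.51) and the abscission protein Cep55 (-0.23, and -0.10 at 6 days, not called). Of 11 genes of the DREAM and B-Myb complexes, 3 fell and 0 rose at 3 days. The 27.3% called compare with 12.6% of all tested genes that fell and 24.4% called in either direction. At 6 days 4 fell (36.4%, background 15.1%) and 1 rose (9.09%, background 15.7%), together 45.5% against 30.8%. The E2F partner Tfdp2 fell at both times (-0.47 and -0.46), as did E2f5 (-0.30 and -0.41) and the MuvB subunit Rbbp4 (-0.15 and -0.16), and the CHR-binding subunit Lin54 fell at 6 days (-0.22). The gene that rose was Rbl2, which encodes p130 (0.19 at 6 days), named after its value was seen. Without the 5 libraries over 1 CPM of Col1a1 the number of genes called at either time was 1 in place of 5 in the DREAM list and 13 in place of 26 among the further mitotic genes.

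Among 34 DNA replication genes, which act before G2, 3 fell and 5 rose at 3 days (23.5% called, background 24.4%). At 6 days 7 fell and 2 rose (26.5%, background 30.8%). Averaged over both times, 12 fell (35.3%, background 21.4%) and 7 rose (20.6%, background 20.6%), together 55.9% against 42.0%. The totals were thus near or below the background at each time and above it in the average. The thymidine-supplying enzymes rose at both times, Tk1 by 0.31 and 0.38 and Tyms by 0.22 and 0.35. The origin-licensing gene Cdc6 and the replication initiator Mcm10 fell at 6 days (-0.27 and -0.20). Without the libraries over 1 CPM of Col1a1 the number called at either time was 3 in place of 15.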

How the data were processed

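Messenger RNA was sequenced in 12 samples of the line, in 4 groups of 3. Per the labels' protocols RNA came from RNeasy columns and the libraries from the TruSeq stranded kit that selects messenger RNA. The deposited table holds raw counts of reads per gene, which the authors made with featureCounts on the build mm10, per the submitters' processing notes, and a gene length, the other deposited column used here. The aligner, strand option and rule for multi-mapped reads were not given in the sources used here. Of 27179 entries 874 carried no gene identifier and were left out, with 0.305% to 0.362% of each library's counts. Symbols of 25275 of 26305 identifiers came from RefSeq.

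Counts were scaled by TMM, filtered with filterByExpr by group, and fitted with edgeR's robust quasi-likelihood test (edgeR 4.0.16, R 4.3.3), all 12 libraries in 1 fit of 4 group means; a limma voom fit (limma 3.58.1) and DESeq2 1.42.0 were alternatives. P-values are two-sided and adjusted by Benjamini-Hochberg over all 11997 genes tested, and a gene is called below 0.05; no p-value was adjusted over the 50 genes alone. An exact permutation of 3 libraries against 3 cannot go below 0.1. The fit's common biological coefficient of variation was 5.69%, with a median of 13.2 prior degrees of freedom. Errors given with log2 fold changes are standard errors (SE), and RPKM uses the deposited length. The fit was tested on simulated data. Of the cell type markers 1 further gene is not reported here.

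The 50 genes and all lists were chosen with earlier results of these data known. Values in every library are given for genes called at 3 or 6 days and for Cdk1, Ccnb1, Plk1, Aurka, Aurkb, Top2a, Mki67, Foxm1 and Mybl2, the others by ranges and counts, and of each further list up to 4 called genes with the smallest p. The labels number the replicates but do not say what a number shares. Deviations from group means of same-numbered DMSO and WM-1119 libraries correlated at 0.19, 0.14 and 0.24 at 6 days and at -0.02, 0.04 and 0.01 at 3 days. The numbers were therefore treated as pairs at 6 days only, a choice made from these same data. Differently numbered DMSO and WM-1119 libraries of 6 days correlated at -0.22 to 0.06. Between the times, differently numbered libraries reached 0.14 (WM-1119 replicate 1 of 3 days with DMSO replicate 3 of 6 days). The other alternatives were RLE and upper-quartile scaling, other filters, fits of the compared groups alone, a replicate block over all libraries, leaving out each library or the 5 with over 1 CPM of Col1a1, and thinning all libraries to the smallest total.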

Additional observations from a re-analysis of the deposited data

How the results depend on the processing

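Of 21 calls of single genes, 7 held in every alternative: Cdc25b and Kif23 at both times and Cenpa, Anln and Mybl2 at 3 days. The other 14 were lost in at least 1, and 0 reversed. Without the 5 libraries over 1 CPM of Col1a1 the test at 6 days sets 1 library against 1, with a spread taken from the other groups, so calls lost or kept there say little of stability. At 3 days the 14 called genes became 8 with upper-quartile scaling, 8 with DESeq2, 9 without the Col1a1 libraries, and 5 to 15 when single libraries were left out. At 6 days the 7 became 12 with the replicate block within the libraries of 6 days and 2 without the Col1a1 libraries, and 6 to 8 with single libraries left out. The block over all libraries moved no count by over 1.5 times, and the block changed no call at 6 days other than those given. Apart from the block within the libraries of 6 days, the shares of all genes called in the alternatives are not given here. The count averaged over both times was 9 without the Col1a1 libraries. For DMSO over time the 1 called gene became 0 with the groups fitted alone, 0 without the Col1a1 libraries and 0 to 1 with single libraries left out (0 without DMSO replicates 1 or 3 of 3 days or DMSO replicate 2 of 6 days). For WM-1119 over time the count of 1 became 3 with upper-quartile scaling, 2 without a filter, 3 with the groups fitted alone, 0 without the Col1a1 libraries and 0 to 2 with single libraries left out (0 without WM-1119 replicate 2 of 3 days or WM-1119 replicates 1 or 2 of 6 days, and 2 without DMSO replicate 3 of either time). The further mitotic genes, DREAM genes and replication genes called at either time became 13, 1 and 3 without the Col1a1 libraries.

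Estimates that changed sign were all of uncalled genes. With single libraries left out, log2 fold changes ranged from -0.074 to 0.033 (Cdk1), -0.049 to 0.0096 (Aurkb), -0.063 to 0.039 (Kif20a) and -0.057 to 0.041 (Prc1) at 6 days, and from -0.049 to 0.013 (Ckap2), -0.045 to 0.039 (Top2a) and -0.037 to 0.14 (Mki67) at 3 days. Upper-quartile scaling gave 0.0039 (Aurkb at 6 days), 0.0079 (Ckap2 at 3 days) and 0.017 (Top2a at 3 days), and Top2a at 3 days was 0.0037 without a filter and 0.0033 with the groups fitted alone. Without the Col1a1 libraries Gtse1 was -0.024 and Pttg1 0.049 at 6 days, and Mki67 was -0.037 at 3 days. The cause was not tested, except that leaving out libraries leaves fewer samples. With all libraries thinned to the smallest total, 12 genes were called at 3 days and 8 at 6 days.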
